A study of Homo sapiens with 8 samples.

Results

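RNA-seq values of 9 genes that write, copy, oxidize, excise or read DNA methylation (*DNMT1*, *DNMT3A*, *DNMT3B*, *UHRF1*, *TET1*, *TET2*, *TET3*, *TDG* and *MBD2*) were examined, out of 60754 genes and spike-in sequences listed. The members were taken by gene symbol, and each symbol matched 1 listed gene. The 8 libraries came from 2 clones of the human line SEM, a B-cell acute lymphoblastic leukemia with a rearranged *KMT2A* gene. In both clones a miniAID-mClover3 degron tag was placed at the end of both *CTCF* alleles, and a lentiviral cassette expressed OsTIR1(F74G), the plant F-box protein that binds the tag when the auxin analog 5-Ph-IAA is present, together with Zeocin resistance. Parental cells of C17.2 and C3.2 carried these alleles untreated, with 2 libraries each. Resistant cells, again with 2 libraries per clone, had been kept for 36 days under 5-Ph-IAA at 1 μM with Zeocin at 100 μg/ml before both drugs were withdrawn. C17.2 resistant cells carried a nonsense mutation of *CTCF* that gives a truncated protein without the tag. The paper reports that the tagged full-length protein also came back in these cells once auxin was removed. C3.2 resistant cells carried a missense mutation inside miniAID. Each line is 1 clone, and the titles number the libraries of each clone in a run of its own, so levels that differ from clone to clone cannot be told apart from what these runs of numbers stand for, which the labels do not say. The labels do not say whether the 2 libraries of a group came from separate cultures, so p-values measure only the spread between these libraries, which may be technical.

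DNA methylation is placed on cytosines of CpG dinucleotides. DNMT3A and DNMT3B set new marks, while UHRF1 binds hemimethylated CpG behind the replication fork and brings DNMT1 there to copy the mark onto the new strand. TET1, TET2 and TET3 oxidize 5-methylcytosine, TDG excises the most oxidized forms so that base excision repair restores cytosine, and MBD2 reads methylated CpG for the NuRD complex. CTCF binds part of its sites only where they are unmethylated, and *TET2* and *DNMT3A* are recurrently mutated in blood cancers.

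Levels are given in TPM, which corrects for transcript length and for the library total, so that levels of different genes may be compared within a library. Depth per library is unknown, since TPM keeps no depth. The libraries of a group correlated at a Pearson's r of 0.969 to 0.979 across genes, and no pair held identical values. The C3.2 resistant pair stood apart most, with 12.0% of the 7002 genes of mean TPM of at least 10 differing by more than 0.25 on the log2 scale between its libraries, against 4.90% to 7.60% in the other groups. Protein-coding genes took 36.0% to 43.3% of TPM. *CTCF*, the tagged gene, was at 35.39 and 33.68 TPM in C17.2 parental cells, 51.06 and 54.73 TPM in C17.2 resistant cells, 32.17 and 32.26 TPM in C3.2 parental cells and 44.18 and 41.49 TPM in C3.2 resistant cells. Of 10 B-lineage markers, 8 reached 1 TPM and the sum ranged from 778.6 to 887.4 TPM in C17.2 and from 702.9 to 874.2 TPM in C3.2, with both resistant sums below both parental sums in each clone. *IGLL1*, a surrogate light chain of the pre-B-cell receptor, fell by 2.17 and 2.35 (log2) in C17.2 and C3.2. *DNTT* and *CD24* stayed below 1 TPM. Of the 5 T-cell markers *CD3D* was listed at 0 in all libraries and *TRAC*, at 38.64 to 49.23 TPM, alone reached 1 TPM, while the 5 myeloid markers summed to 2.65 to 4.99 TPM, the 3 erythroid markers to at most 0.21 TPM and the 3 NK markers to 8.27 to 17.53 TPM. The part of these marker changes in the results below was not tested. In bulk RNA, fewer cells of a type and less RNA per cell cannot be told apart.

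For the test, TPM was scaled between libraries and compared as log2(scaled TPM + 1) in limma, with Benjamini-Hochberg adjustment over 15614 genes that reached 1 TPM in at least 1 library. Since 1 is added to each value, changes of weakly expressed genes come out too small on this scale. All members but *TET1* passed this filter. In C17.2 resistant against parental cells, 1 of the 8 tested members rose (*TDG*) and 3 fell (*UHRF1*, *TET2* and *TET3*) at an adjusted p under 0.05, against a background of 13.4% of all tested genes that rose and 13.9% that fell, or 27.3% in either direction. In C3.2, none of the 8 rose and 1 fell (*UHRF1*), against 4.43% that rose and 6.91% that fell, or 11.3% in either direction. At an unadjusted p under 0.05 the counts of members were the same, with 0 that rose in C3.2, while the background became 19.7% of all tested genes higher and 19.6% lower in C17.2, and 12.6% higher and 15.1% lower in C3.2. The change differed between the clones for 3 of the 8 (*UHRF1*, *TDG* and *TET3*), against 9.96% of all tested genes. The median log2 change of the 8 was -0.04 in C17.2 and -0.10 in C3.2, against 0 over all tested genes in both. Without scaling, the median of all tested genes shifted by 0.135 (log2) in C17.2 and the share of called genes that were higher went from 49.0% to 75.1%, or to 64.5% after rescaling over protein-coding genes. In C3.2 that share went from 39.0% to 57.8% without scaling, to 70.1% over protein-coding genes and to 50.8% after quantile normalization.

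**Figure D1:**
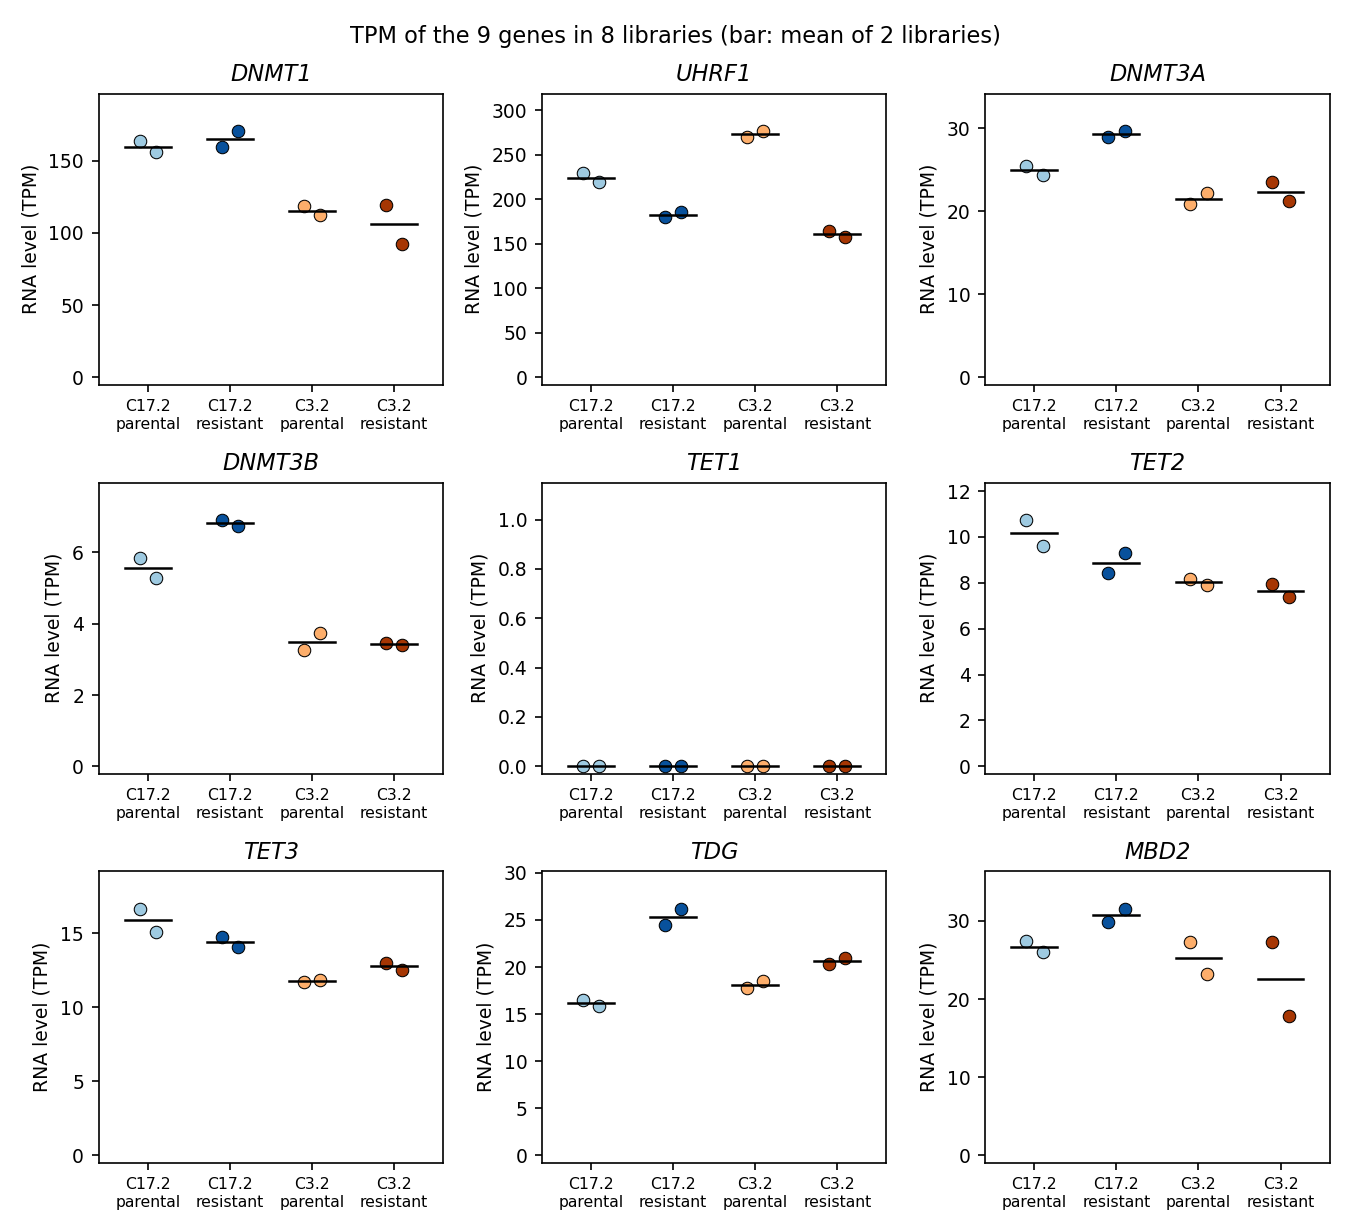
TPM of each of the 9 genes (vertical axes, from 0, with a range of their own) in the 2 libraries of each of the 4 groups (points), with the group mean as a bar. In TPM, *UHRF1* was lower in resistant cells of both clones, *TDG* was highest in C17.2 resistant cells, and *TET1* was listed at 0 throughout. After scaling between libraries, mean *TDG* was 22.22 in C17.2 resistant cells and 21.71 in C3.2 resistant cells.

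*UHRF1* (ENSG00000276043.5, GRCh38 chr19:4903080-4962154, plus strand) was the most abundant member in every library and the member whose RNA fell in both clones. Its level was 229.81 and 218.75 TPM in C17.2 parental cells and 179.85 and 185.22 TPM in C17.2 resistant cells. Parental cells of C3.2 held 269.99 and 277.08 TPM and resistant cells of C3.2 163.86 and 157.34 TPM. In each clone both resistant libraries lay below both parental libraries, and the parental cells differed more from each other across the clones than the resistant cells did. The change was -0.46 ± 0.04 (log2, SE; 95% interval -0.54 to -0.37; limma, Benjamini-Hochberg adjusted p = 0.000412) in C17.2, or -27.3% in mean scaled TPM. The change in C3.2 was -0.83 ± 0.04 (95% interval -0.92 to -0.75; limma, Benjamini-Hochberg adjusted p = 0.00018), or -44.0%. The fall was larger in C3.2 by 0.38 ± 0.05 on the log2 scale (95% interval 0.25 to 0.50; limma, Benjamini-Hochberg adjusted p = 0.00869 for the difference). Both falls and their difference stayed past the threshold in every scaling, model and left-out library tried, with changes of -0.47 to -0.30 in C17.2 and -0.84 to -0.73 in C3.2.

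The upstream sequence of *UHRF1* is shown because this gene fell in both clones, and because genes of S phase, a class that E2F factors are known to control, were among those listed for comparison. RefSeq (GRCh38.p14) gives *UHRF1* 3 promoter entries. The 250 bases before 1 of its starts, at chr19:4909894-4910143 on the plus strand and outside annotated exons, hold 32 CpG. A word of E2F type stands in capitals, 160 to 153 bases before the start. In the second, the capitals mark the reverse complement of another such word, which begins 14 bases before a different start (chr19:4909479-4909500, plus strand, within an annotated exon).
UHRF1 upstream: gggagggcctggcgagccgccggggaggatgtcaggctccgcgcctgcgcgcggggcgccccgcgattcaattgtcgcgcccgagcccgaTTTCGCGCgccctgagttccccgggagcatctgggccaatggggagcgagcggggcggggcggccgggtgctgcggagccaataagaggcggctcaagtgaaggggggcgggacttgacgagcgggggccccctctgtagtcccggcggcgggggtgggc
UHRF1 other start: gagttttcGCGGGAAAaaaatc
The words searched on both strands of the 250 bases before each start were TTTCCCGC, TTTGGCGC and TTTCGCGC (E2F-type words), of which at least 1 stands in 2.32% of 35116 RefSeq promoter entries. A word of CTCF type, which stands in 2.02% of all entries, was searched as well and had no match at the members. The 2 matches lie in different windows and do not overlap. All 9 members had at least 1 entry, and *UHRF1* was the only member with a match, at 2 of its 3 entries. The search was unequal, with 1 entry for *DNMT1* and 6 for *DNMT3A*. The 1 entry of *DNMT3B*, chr20:32779602-32779851, lies inside that gene, so members are not compared by their matches. A match is a description of letters and not a binding site.

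*DNMT1* (ENSG00000130816.16, chr19:10133342-10231286, minus strand), the maintenance methyltransferase that UHRF1 recruits, showed no change past the threshold in either clone. It was at 163.35 and 155.89 TPM in C17.2 parental cells and at 159.45 and 170.84 TPM in C17.2 resistant cells, and these ranges overlap. In C3.2 it was at 118.48 and 112.25 TPM in parental cells and at 119.51 and 92.28 TPM in resistant cells, and the low value of the second resistant library set the spread. The log2 change was -0.11 (95% interval -0.35 to 0.12; limma, Benjamini-Hochberg adjusted p = 0.439) in C17.2 and -0.20 (95% interval -0.44 to 0.03; adjusted p = 0.243) in C3.2. Without C3.2 resistant replicate 1, which leaves the lower library alone in its group, the C3.2 change was -0.35 with a Benjamini-Hochberg adjusted p of 0.0324 in limma. *DNMT1* shares 83 exonic bases with *S1PR2* on the same strand, which was at 1.14 to 2.35 TPM.

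The ratio of *UHRF1* to *DNMT1* within a library needs no scaling between libraries. It was 1.41 and 1.4 in C17.2 parental libraries against 1.13 and 1.08 in C17.2 resistant libraries. In C3.2 it was 2.28 and 2.47 in parental libraries against 1.37 and 1.71 in resistant libraries. The ratio was thus lower in resistant libraries of both clones with no overlap, and the design, with 2 libraries against 2, allows no exact permutation p below 0.333. It is made from the values given above, among them the fall of *UHRF1*, and is not a separate result. The C3.2 resistant ratio of 1.71 was that of the library with *DNMT1* at 92.28 TPM.

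*DNMT3A* (ENSG00000119772.16, chr2:25227855-25342590, minus strand) and *DNMT3B* (ENSG00000088305.18, chr20:32762385-32809359, plus strand), the de novo methyltransferases, did not pass the threshold in either clone. *DNMT3A* was at 25.43 and 24.36 TPM in C17.2 parental cells, 28.92 and 29.70 TPM in C17.2 resistant cells, 20.86 and 22.17 TPM in C3.2 parental cells and 23.50 and 21.19 TPM in C3.2 resistant cells. Its TPM was higher in both C17.2 resistant libraries, but after scaling the log2 change was 0.07 (95% interval -0.04 to 0.18; limma, Benjamini-Hochberg adjusted p = 0.299), and in C3.2 it was -0.01 (95% interval -0.12 to 0.10; adjusted p = 0.890). The call for *DNMT3A* in C17.2 depended on scaling, since the change was 0.23 (limma, Benjamini-Hochberg adjusted p = 0.0453) on TPM as deposited and 0.15 (adjusted p = 0.0415) on TPM rescaled over protein-coding genes. *DNMT3B* was the lowest of the 8 detected members, at 5.85 and 5.29 TPM in C17.2 parental cells, 6.92 and 6.74 TPM in C17.2 resistant cells, 3.25 and 3.75 TPM in C3.2 parental cells and 3.46 and 3.41 TPM in C3.2 resistant cells. Its log2 change was 0.11 (95% interval -0.06 to 0.29; limma, Benjamini-Hochberg adjusted p = 0.291) in C17.2 and -0.07 (95% interval -0.24 to 0.10; adjusted p = 0.565) in C3.2. The ratio of *DNMT3A* to *DNMT3B* was 4.18 to 4.60 in the 4 libraries of C17.2 and 5.91 to 6.79 in the 4 of C3.2, so it separated the clones and not resistant from parental cells.

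*TET1* (ENSG00000138336.9, chr10:68560337-68694487, plus strand) was listed at 0 in all 8 libraries, and no fold is given. *TET2* and *TET3*, the other dioxygenases of the family, were both detected in every library. *TET2* (ENSG00000168769.13, chr4:105145875-105279816, plus strand) was at 10.76 and 9.61 TPM in C17.2 parental cells and at 8.41 and 9.28 TPM in C17.2 resistant cells. For C3.2 the values were 8.17 and 7.89 TPM in parental cells and 7.94 and 7.38 TPM in resistant cells. Resistant libraries lay below parental libraries in C17.2 and overlapped them in C3.2. *TET2* fell by 0.33 on the log2 scale in C17.2 (SE 0.06; 95% interval -0.48 to -0.18; limma, Benjamini-Hochberg adjusted p = 0.0104), or by 22.3% in mean scaled TPM. In C3.2 the change was -0.12 (95% interval -0.27 to 0.03; adjusted p = 0.261). Its change was not shown to differ between C17.2 and C3.2 (difference -0.21; limma, Benjamini-Hochberg adjusted p = 0.195).

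*TET3* (ENSG00000187605.15, chr2:73984910-74108176, plus strand) was at 16.68 and 15.08 TPM in C17.2 parental cells and at 14.75 and 14.10 TPM in C17.2 resistant cells. In C3.2 it was at 11.73 and 11.85 TPM in parental cells and at 13.01 and 12.54 TPM in resistant cells. In TPM, resistant libraries were thus below parental ones in C17.2 and above them in C3.2. *TET3* fell by 0.28 on the log2 scale in C17.2 (SE 0.05; 95% interval -0.41 to -0.15; limma, Benjamini-Hochberg adjusted p = 0.0114), and the change in C3.2 was 0.04 (95% interval -0.09 to 0.18; adjusted p = 0.639). The difference between the clones was -0.32 (95% interval -0.51 to -0.14; limma, Benjamini-Hochberg adjusted p = 0.0484) and lost the threshold in 13 of 15 alternatives. The C17.2 falls of *TET2* and *TET3* were also lost on TPM as deposited, where they were -0.18 and -0.13. Both calls were lost without C17.2 parental replicate 1 (-0.29 for *TET2* and -0.25 for *TET3*). The *TET2* call was further lost without C17.2 resistant replicate 1 (-0.28), and the *TET3* call without C17.2 resistant replicate 2 (-0.23). *TET3* shares 390 exonic bases with a long noncoding RNA on the same strand (ENSG00000235499, 6.59 to 10.26 TPM), so that reads could be split between them.

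*TDG* (ENSG00000139372.15, chr12:103965822-103988874, plus strand), the glycosylase downstream of TET oxidation, was the member that rose in C17.2. It was at 16.47 and 15.81 TPM in C17.2 parental cells and at 24.42 and 26.21 TPM in C17.2 resistant cells. For C3.2 the values were 17.79 and 18.48 TPM in parental cells and 20.31 and 20.96 TPM in resistant cells. Both resistant libraries of each clone were above both parental libraries in TPM, with the wider gap in C17.2. Mean scaled TPM went from 15.86 to 22.22 in C17.2 and from 19.98 to 21.71 in C3.2. After scaling, the clones thus lay further apart in parental than in resistant cells. The log2 change was 0.46 ± 0.05 (SE; 95% interval 0.33 to 0.59; limma, Benjamini-Hochberg adjusted p = 0.00181) in C17.2, or 40.1% in mean scaled TPM. The C3.2 change was 0.11 (95% interval -0.02 to 0.24; adjusted p = 0.232), or 8.71%. That value was 0.0566 without C3.2 resistant replicate 2, 0.177 on TPM as deposited and 0.213 after rescaling over protein-coding genes (limma, Benjamini-Hochberg adjusted p = 0.579, 0.128 and 0.0514). The rise in C17.2 stayed past the threshold in all 16 alternatives, at 0.44 to 0.62. The difference between the clones was 0.35 (95% interval 0.16 to 0.53; limma, Benjamini-Hochberg adjusted p = 0.0390) and lost the threshold in 11 of 15 alternatives, among them the loss of any library but C3.2 resistant replicate 2. A processed pseudogene with a *TDG* sequence, *TDGP1*, was at 0.19 to 0.69 TPM.

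The upstream sequence of *TDG* is given beside that of *UHRF1* because these 2 members moved in opposite directions in C17.2. The stretch outside annotated exons, chr12:103965622-103965821 on the plus strand (RefSeq, GRCh38.p14), runs from 250 to 51 bases before the RefSeq start and holds 18 CpG, with none of the 4 words searched. The full 250 bases before this start hold 22 CpG, and the median over all RefSeq promoter entries was 11 CpG in 250 bases.
TDG upstream: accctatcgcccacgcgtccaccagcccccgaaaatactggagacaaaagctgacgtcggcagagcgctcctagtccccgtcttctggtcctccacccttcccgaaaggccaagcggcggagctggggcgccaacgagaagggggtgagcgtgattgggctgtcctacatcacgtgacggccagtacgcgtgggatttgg

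Ratios within a library set the eraser genes against each other. *TDG* to *TET2* was 1.53 and 1.65 in C17.2 parental libraries and 2.90 and 2.82 in C17.2 resistant libraries, and it was 2.18 and 2.34 against 2.56 and 2.84 in C3.2. *TDG* to *TET3* was 0.987 and 1.05 against 1.66 and 1.86 in C17.2, and 1.52 and 1.56 against 1.56 and 1.67 in C3.2. *TET3* to *TET2* was 1.55 and 1.57 against 1.75 and 1.52 in C17.2, with overlap, and 1.44 and 1.5 against 1.64 and 1.70 in C3.2. *TDG* thus stood higher against *TET2* in resistant cells of both clones, and *TET3* stood higher against *TET2* without overlap in C3.2. In C17.2 the ratios of *TDG* restate the changes given above. In C3.2 none of *TDG*, *TET2* and *TET3* passed the threshold by itself.

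*MBD2* (ENSG00000134046.12, chr18:54151606-54224669, minus strand), the methyl-CpG reader, did not pass the threshold in either clone and had the widest intervals. It was at 27.46 and 25.97 TPM in C17.2 parental cells, 29.84 and 31.58 TPM in C17.2 resistant cells, 27.32 and 23.14 TPM in C3.2 parental cells and 27.31 and 17.86 TPM in C3.2 resistant cells. The gap between the C3.2 resistant libraries, replicate 2 minus replicate 1, was -0.52 on the log2 scale of scaled TPM, and that of *DNMT1* in the same pair was -0.30. The log2 change was 0.04 (95% interval -0.37 to 0.44; limma, Benjamini-Hochberg adjusted p = 0.901) in C17.2 and -0.24 (95% interval -0.65 to 0.16; adjusted p = 0.398) in C3.2. Without C3.2 resistant replicate 2, the C3.2 value was 0.01.

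**Figure D2:**
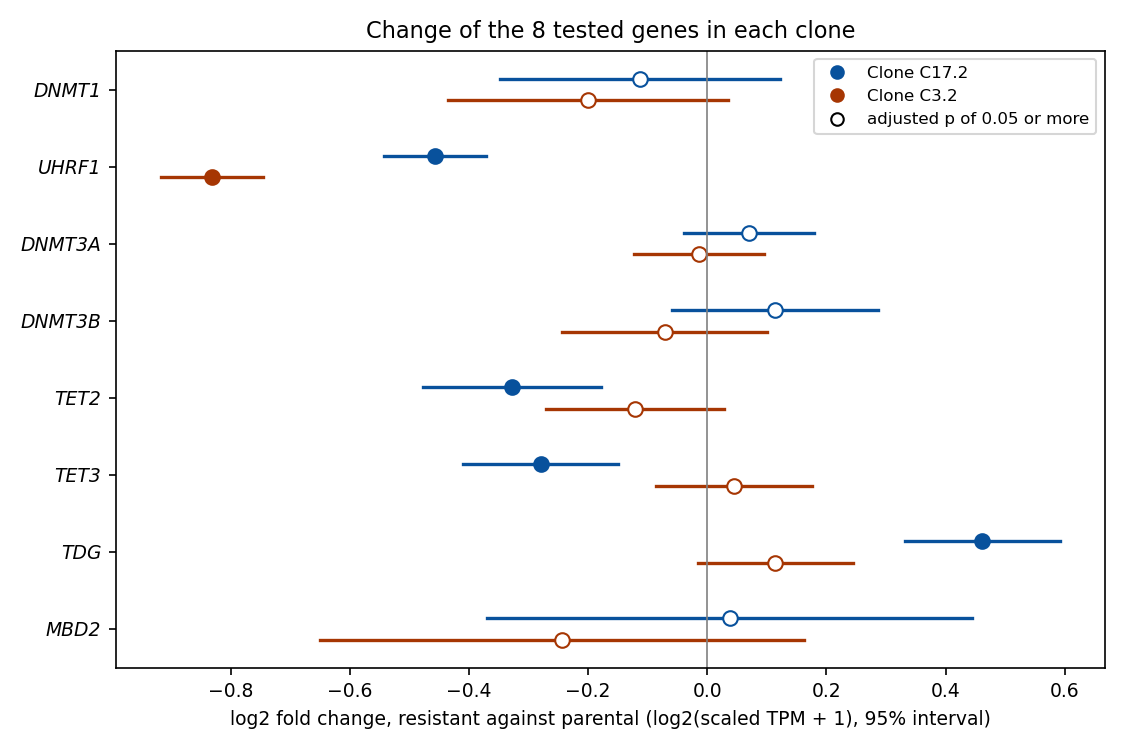
Log2 fold change of the 8 tested members, resistant against parental cells (horizontal axis, log2(scaled TPM + 1)), in C17.2 (blue) and C3.2 (brown), with 95% intervals from limma. Filled points had a Benjamini-Hochberg adjusted p under 0.05, which were *UHRF1* in both clones and *TET2*, *TET3* and *TDG* in C17.2.

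In TPM, *UHRF1* stood first and *DNMT1* next in all 4 groups, without overlap between them within a group. *MBD2* and *DNMT3A* followed, separated by less than 1 TPM between their nearest libraries in all groups but C3.2 resistant cells, where the *MBD2* range held that of *DNMT3A* and of *TDG*. *TDG* and *TET3* overlapped in C17.2 parental cells, while *TDG* was above *TET3* without overlap in the other 3 groups. *TET2* was above *DNMT3B* in all 4 groups, and *TET1* was last.

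Among the partners of maintenance methylation, *DPPA3* was at most at 0.04 TPM, and of the other 8 listed partners 4 fell and none rose in C17.2, while 1 fell and none rose in C3.2, with median log2 changes of -0.14 and -0.09. At an unadjusted p under 0.05 the list still had 0 that rose in either clone. At that level 4 of 8 in C17.2 and 2 of 8 in C3.2 were lower, against 19.6% and 15.1% of all tested genes. For this list and those below, the shares of all tested genes at an adjusted p under 0.05 were 13.4% higher and 13.9% lower in C17.2. In C3.2 these shares were 4.43% higher and 6.91% lower. A rise or fall given for 1 clone does not by itself show a difference between the clones. *CDCA7*, which activates the remodeler HELLS at hemimethylated DNA, fell in both, from 105.13 and 101.36 TPM to 89.68 and 89.56 TPM in C17.2 (log2 change -0.36) and from 92.27 and 95.79 TPM to 81.37 and 82.15 TPM in C3.2 (log2 change -0.27). *CDCA7L*, *UHRF2*, the paralog of *UHRF1*, and *HELLS* fell in C17.2 by 0.27, 0.25 and 0.19 (log2). Their log2 changes in C3.2 were -0.23, -0.12 and -0.08, which did not pass the threshold. For none of these genes was the change shown to differ between the clones. *PCNA*, the replication clamp, was at 128.83 to 160.2 TPM and *USP7*, a deubiquitinase known to act on UHRF1 and DNMT1, was at 57.74 to 75.81 TPM, and neither passed the threshold. *DNMT3L*, a cofactor of de novo methylation in germ cells, was listed at 0 in all libraries, and *TRDMT1*, a tRNA methyltransferase related to the DNMT proteins, was at 3.59 to 5.78 TPM and did not pass the threshold.

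Of 8 tested genes from the families of methyl-CpG readers besides *MBD2*, 1 rose and 1 fell in C17.2. None passed the threshold in C3.2 (1 at an unadjusted p under 0.05), and the medians were 0.04 in C17.2 and 0.0002 in C3.2. The list was drawn by family, and binding to methylated CpG is not implied for each gene. *ZBTB33*, which encodes Kaiso, rose from 13.97 and 13.40 TPM to 18.12 and 20.52 TPM in C17.2 (log2 change 0.31), and *MBD6* fell by 0.33 (log2). The other gene of this list, *ZBTB38*, was below 1 TPM. In the NuRD complex, which MBD2 or MBD3 joins to deacetylate histones and move nucleosomes, 2 of 11 genes rose and 1 fell in C17.2, and 2 fell and none rose in C3.2 (4 and 0 at an unadjusted p under 0.05), with medians of -0.04 and -0.10. *MTA1* fell in C17.2 from 62.48 and 60.12 TPM to 52.71 and 42.31 TPM (log2 change -0.53), while *RBBP7* and *MTA2* rose by 0.19 and 0.17 (log2). *MTA3* fell in C3.2 from 8.10 and 7.81 TPM to 6.38 and 5.89 TPM (log2 change -0.39), and *RBBP4* fell there by 0.24 (log2).

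Base excision and its neighbors moved in both directions. Of 13 tested genes, 3 rose and 3 fell in C17.2 and 2 fell and none rose in C3.2 (4 and 2 at an unadjusted p under 0.05), with medians of -0.04 and 0.01. *UNG*, the uracil glycosylase, rose in C17.2 from 9.83 and 8.43 TPM to 14.65 and 13.76 TPM (log2 change 0.44) and was at 13.59, 13.90, 15.40 and 13.67 TPM in the libraries of C3.2. *NEIL2*, a glycosylase of oxidized bases at 1.31 to 2.60 TPM, rose in C17.2 by 0.37 (log2). Its C3.2 change of 0.29 did not pass the threshold and was not shown to differ from that in C17.2 (limma, Benjamini-Hochberg adjusted p = 0.770). *PARP1*, a sensor of strand breaks, rose by 0.18 (log2) in C17.2 and fell by 0.20 (log2) in C3.2. *XRCC1*, the scaffold of single-strand break repair, fell in C17.2 by 0.34 (log2). The *XRCC1* change in C3.2, -0.19, did not pass the threshold and was not shown to differ from that in C17.2 (limma, Benjamini-Hochberg adjusted p = 0.386). *GADD45A*, a stress gene linked to demethylation, fell in both clones by 0.70 and 0.61 (log2). *GADD45B* fell in C17.2 from 9.59 and 9.01 TPM to 5.49 and 5.55 TPM (log2 change -0.79) and in C3.2 had a log2 change of -0.04.

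Among 8 genes of TET partners and cofactor supply, 3 fell in C17.2 and 1 rose in C3.2, with medians of -0.12 and -0.06. At an unadjusted p under 0.05, 4 were lower and 1 higher in C17.2, and 2 lower and 1 higher in C3.2. *OGT*, the O-GlcNAc transferase that TET proteins bind, had the largest change of the list, from 204.42 and 188.75 TPM in C17.2 parental cells to 86.47 and 96.41 TPM in C17.2 resistant cells (log2 change -1.26; limma, Benjamini-Hochberg adjusted p = 3.58e-05). In C3.2 *OGT* was at 94.51 and 101.28 TPM in parental cells and at 92.44 and 88.07 TPM in resistant cells, so that C17.2 parental cells alone stood high. *D2HGDH*, which clears 2-hydroxyglutarate, an inhibitor of TET enzymes, fell in C17.2 by 0.42 (log2). *CXXC5* rose in C3.2 from 30.65 and 31.14 TPM to 38.33 and 40.03 TPM (log2 change 0.27). *IDH1* and *IDH2*, which make the TET cosubstrate 2-oxoglutarate, did not pass the threshold in either clone, with log2 changes of -0.05 and 0.04 in C17.2 and of -0.04 and -0.04 in C3.2.

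The methyl donor cycle makes S-adenosylmethionine and removes S-adenosylhomocysteine. Of its 9 genes, 3 fell in C17.2, and 1 rose and 1 fell in C3.2, with medians of -0.004 and -0.04. At an unadjusted p under 0.05, 3 were lower and 0 higher in C17.2, and 2 lower and 1 higher in C3.2. *AHCYL1*, a protein related to the hydrolase AHCY, fell in C17.2 from 40.62 and 36.86 TPM to 23.14 and 23.52 TPM (log2 change -0.86) and in C3.2 from 19.44 and 19.94 TPM to 18.32 and 17.58 TPM (log2 change -0.19). *AHCY* itself fell in C17.2 by 0.28 (log2), as did *GNMT*, a glycine methyltransferase at 0.69 to 1.76 TPM, by 0.56 (log2). *MTRR* rose in C3.2 by 0.30 (log2). *MAT2A*, which makes S-adenosylmethionine, had log2 changes of -0.0003 in C17.2 and -0.02 in C3.2.

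**Figure D3:**
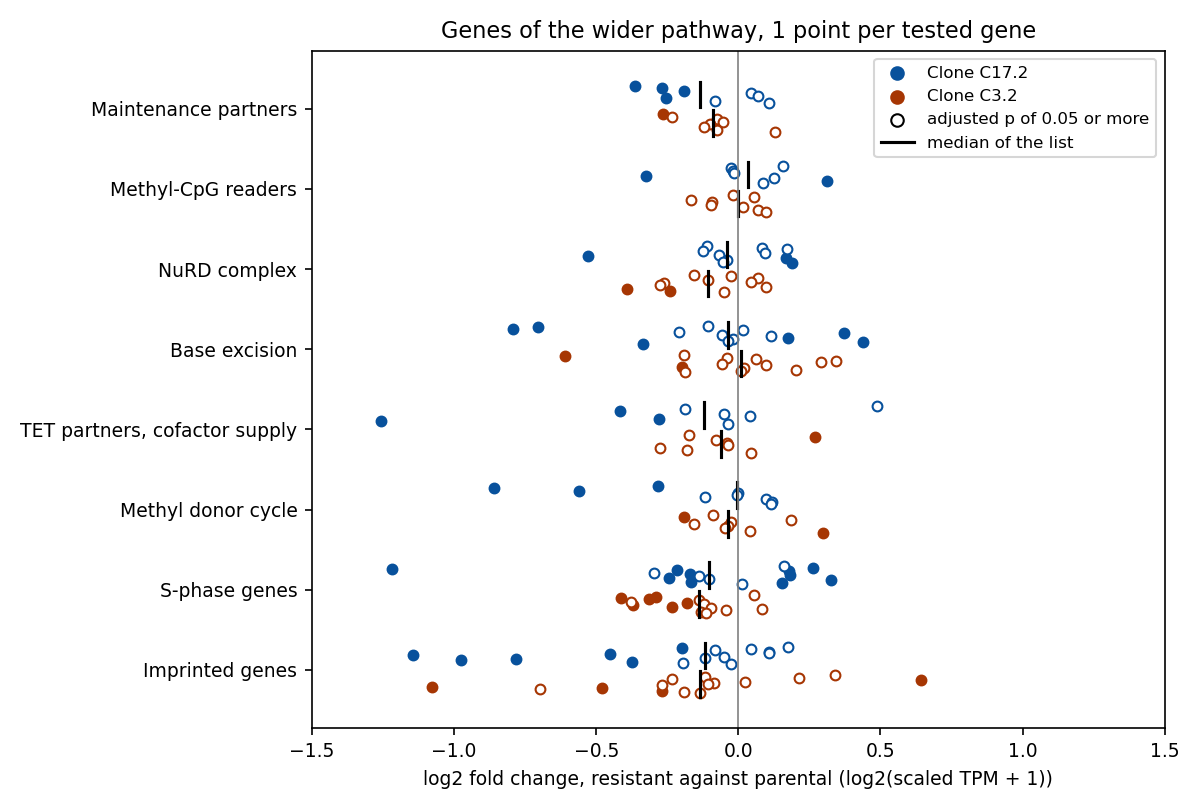
Log2 fold change, resistant against parental cells (horizontal axis), of each tested gene (points) in 8 lists of the wider pathway, for C17.2 (blue) and C3.2 (brown), with the median of each list as a bar. Filled points had a Benjamini-Hochberg adjusted p under 0.05 in limma, and most points of every list lay between -0.5 and 0.5.

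*UHRF1* and *DNMT1* are known to be made mainly in dividing cells, so 15 genes of S phase were read beside them. In C17.2, 5 rose and 5 fell, and in C3.2 none rose and 6 fell (0 higher and 12 lower at an unadjusted p under 0.05, against 12.6% and 15.1% of all tested genes), with medians of -0.10 and -0.14. *CDT1*, the licensing factor, fell in C17.2 from 82.83 and 70.71 TPM to 37.53 and 34.81 TPM (log2 change -1.22) and in C3.2 from 47.40 and 52.01 TPM to 39.94 and 37.81 TPM (log2 change -0.41). *CDC6*, its partner in licensing, rose in C17.2 by 0.26 and fell in C3.2 by 0.29 (log2). *MKI67*, the proliferation marker, rose in C17.2 by 0.33 (log2). *MCM5*, a subunit of the replicative helicase, fell in C3.2 by 0.37 (log2), and *E2F1* fell in both clones by 0.21 and 0.31 (log2). The medians of this list were below 0 in both clones. The part of S phase in the changes of *UHRF1*, -0.46 and -0.83, was not tested.

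Germline genes, whose promoters are known to be methylated in somatic cells, and imprinted genes were listed as well. Of 22 germline genes, none reached 1 TPM in any library, 14 were listed at 0 in all 8 and the highest value was 0.30 TPM, for *STK31* in C17.2 resistant replicate 1, so none entered the test. Of 27 imprinted genes, 26 were listed and 15 tested. In C17.2, 6 fell and none rose, against 13.9% and 13.4% of all tested genes. In C3.2, 3 fell and 1 rose, against 6.91% and 4.43%. The medians were -0.12 and -0.14. At an unadjusted p under 0.05, 6 were lower and 0 higher in C17.2, and 7 lower and 3 higher in C3.2. *MEST* was at 1.26 and 1.21 TPM in C17.2 parental cells and listed at 0 in both C17.2 resistant libraries, and it was at 0.10 TPM or below in C3.2. *SGCE* fell in C17.2 from 8.03 and 7.28 TPM to 3.67 and 3.92 TPM (log2 change -0.98). In C3.2 *SGCE* was at 5.10 and 4.64 TPM in parental cells and at 3.72 and 2.04 TPM in resistant cells (log2 change -0.70; limma, Benjamini-Hochberg adjusted p = 0.0581), and its change was not shown to differ between the clones (limma, Benjamini-Hochberg adjusted p = 0.534). Its neighbor *PEG10* fell in C3.2 from 15.78 and 17.53 TPM to 8.42 and 7.13 TPM (log2 change -1.08). *PLAGL1*, a zinc finger factor, fell in both clones by 0.78 and 0.48 (log2), and *SNRPN* fell in both by 0.37 and 0.27 (log2). *INPP5F* rose in C3.2 from 4.94 and 4.46 TPM to 8.16 and 8.27 TPM (log2 change 0.64). *IGF2* and *MEG3* were listed at 0 in all libraries, and *H19* was at most at 0.17 TPM. No methylation was measured in these libraries, and its part in the levels of the germline and imprinted genes was not tested.

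The protein-coding genes most like each member were found by Pearson's r over the 8 libraries on log2(scaled TPM + 1), among 8557 genes of mean TPM of at least 5. The 8 points are 4 pairs that share a clone and a treatment, and the values are given as a description. *EEF1A1*, *FRMD4B* and *LCK* were most like *UHRF1* (0.995, 0.993 and 0.992). *ABCB10* and *HRAS* were among those most like *TDG* (0.989 and 0.987). *EPRS*, *INPP5B* and *DLG3* were most like *TET2* (0.993, 0.987 and 0.980), and *RBCK1*, *KCNG1* and *SLC25A12* most like *TET3* (0.979, 0.976 and 0.976). *NONO*, *DROSHA* and *UBALD2* were most like *DNMT1* (0.989, 0.989 and 0.983). *CRMP1*, *PTK7* and *KIF21A* were most like *DNMT3B* (0.990, 0.987 and 0.983), *FCGRT*, *ORMDL3* and *RDX* most like *DNMT3A* (0.970, 0.969 and 0.965), and *UQCRB*, *MOB2* and *PABPN1* most like *MBD2* (0.956, 0.954 and 0.944).

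**Figure D4:**
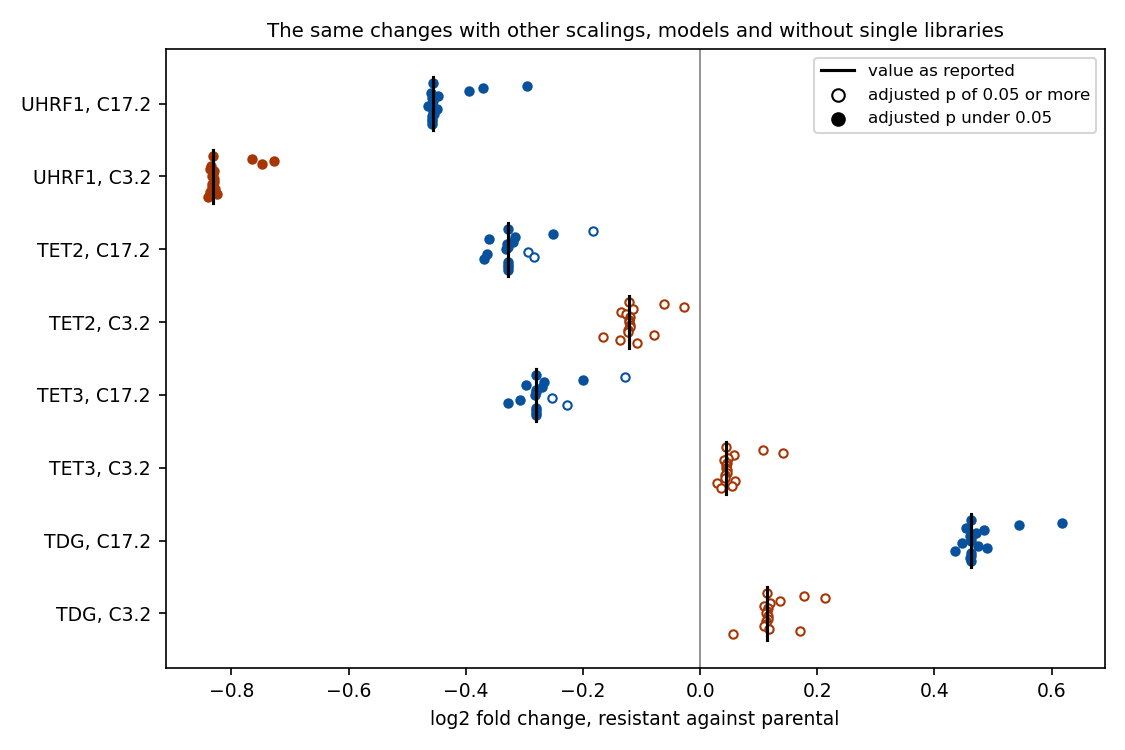
Log2 fold change, resistant against parental cells (horizontal axis), of *UHRF1*, *TET2*, *TET3* and *TDG* in C17.2 (blue) and C3.2 (brown) as reported (bar) and, as points, with other scalings, models and single libraries left out. Filled points had an adjusted p under 0.05, as did all points of *UHRF1* in both clones and of *TDG* in C17.2, while *TET2* and *TET3* in C17.2 had open points.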

How the data were processed

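Total RNA of 8 libraries was sequenced after rRNA depletion. Reads were trimmed (Trim Galore 0.6.3), aligned to GRCh38 (STAR 2.7.9a) and quantified over Gencode 31 (RSEM 1.3.1), and the deposited values are the TPM the authors obtained, not scaled between libraries. From these, 15614 of 60754 rows reaching 1 TPM anywhere entered the test. Each library was divided by the antilog of a trimmed mean of its log2 ratios to the mean library (30% of ratios, 5% of means cut from either end). These trimmed means were first centered over the libraries. The log2(scaled TPM + 1) values of the 4 groups were fitted together in limma 3.58.1 under R 4.3.3, with an intensity trend, two-sided tests and Benjamini-Hochberg adjustment (threshold 0.05). The study used limma-voom, which needs counts. The fit was tested on simulated data. Members and lists were chosen with earlier results of these data known. The ratios between members were not among the planned results. Every member is named, and from each list the 3 largest changes past the threshold per clone, except for a few genes that are not reported here. *PCNA*, *USP7*, *TRDMT1*, *IDH1*, *IDH2*, *MAT2A*, *HELLS*, *NEIL2*, *XRCC1*, *SNRPN* and *STK31* were added after their values were seen. Positions are those of Gencode 44 on GRCh38, and upstream sequences are from RefSeq. Other scalings, pseudocounts, filters and models, and fits without single libraries, are described in the closing section.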

Additional observations from a re-analysis of the deposited data

Results flagged for a closer look

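The change in resistant cells differed between the clones, by the interaction term in limma (Benjamini-Hochberg adjusted p under 0.05), for 3 of the 8 tested members and for 10 of the 33 genes named from the lists, against 9.96% of all tested genes. These 33 were named for large changes within a clone, a choice that favors genes that differ between the clones, so the 2 shares are not compared. Differences are the log2 change in C17.2 minus that in C3.2, over 2 libraries in each of the 4 groups. For *UHRF1* the difference was 0.38 (adjusted p = 0.00869), since it fell in both clones and further in C3.2. For *TDG* it was 0.35 (adjusted p = 0.0390) and for *TET3* -0.32 (adjusted p = 0.0484). The largest difference among the named genes was that of *OGT*, -1.08 (adjusted p = 0.00084), followed by *MEST*, -1.04 (adjusted p = 0.0349), whose levels were at most 1.26 TPM. *PEG10* differed by 0.96 (adjusted p = 0.00649), *CDT1* by -0.81 (adjusted p = 0.00672), *GADD45B* by -0.75 (adjusted p = 0.00805) and *AHCYL1* by -0.67 (adjusted p = 0.00224). *CDC6* differed by 0.55 (adjusted p = 0.0181), *CXXC5* by -0.46 (adjusted p = 0.0268), *UNG* by 0.43 (adjusted p = 0.0458) and *PARP1* by 0.37 (adjusted p = 0.0162). The groups of 2 libraries are too small for a check of single outlying libraries.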

How the results depend on the processing

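No paired analysis was possible because resistant and parental libraries share no replicate numbers in the labels. In fits that left out a library, the lone library of a group was assumed to vary like the other groups. *UHRF1* kept its direction and its side of the threshold in all alternatives. In C17.2 the number of called genes ranged from 2376 to 4538 with single libraries left out, lowest without C17.2 parental replicate 1. In C3.2 it ranged from 326 to 1789, lowest without C3.2 parental replicate 1, and was 1171 with no filter on low values and 77 when its 4 libraries were fitted alone. The number that differed between clones ranged from 542 to 1740, and the share of higher calls among them went from 49.6% to 64.0% on TPM as deposited. On TPM as deposited, C17.2 gave 0.0483 for *DNMT1* (reversed), 0.23 for *DNMT3A* (gained), and -0.18 for *TET2* and -0.13 for *TET3* (lost). *DNMT3A* in C17.2 was also gained at 0.15 over protein-coding genes. In C3.2, *DNMT3A* reversed to 0.0511 on TPM as deposited, 0.0870 over protein-coding genes and 0.0256 after quantile normalization, and *DNMT3B* reversed to 0.0107 over protein-coding genes. The difference between clones for *TET3* was lost at -0.24 (deposited), -0.32 (quantile), -0.35 (pseudocount 0.1), -0.31 (no filter) and -0.32 (no intensity trend), and that for *TDG* at 0.33 (protein-coding), 0.32 (quantile), 0.36 (no filter) and 0.35 (no intensity trend). With single libraries left out, C17.2 values ranged from -0.37 to -0.28 for *TET2* and from -0.33 to -0.23 for *TET3*. C3.2 values ranged from -0.35 to -0.0525 for *DNMT1*, from -0.0503 to 0.0227 for *DNMT3A* (0.00611 without parental replicate 2) and from -0.503 to 0.0142 for *MBD2*. Differences ranged from -0.0607 to 0.236 for *DNMT1*, from -0.37 to -0.27 for *TET3* and from 0.29 to 0.41 for *TDG*. The cause of these changes was not tested. Depth is unknown, and 2 libraries per group limit the precision.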
